A study of Mus musculus with 6 samples.

Results

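B cells whose exact receptor was read in at least 1 other B cell of the same spleen made up 112 of the 6389 B cells with a paired receptor that were considered, 52 cells in 20 clonotypes in a wild-type mouse (WT, C57BL/6JRj) and 60 cells in 26 clonotypes in a mouse heterozygous for 564Igi. That mouse carried the Ightm1(Igh564)Tik and Igktm1(Igk564)Tik alleles of the B6.129S4(Cg) line. In 564Igi mice the rearranged heavy and kappa light chain genes of an autoreactive antibody stand in the immunoglobulin loci, so developing B cells start with a receptor already made. Both samples were spleen, and erythroid cells had been removed from the splenocytes with Ter-119. Each group was 1 mouse, so the spread between animals is unknown, no p-value is given, and every 95% interval covers counting error only.

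The cells were chosen by their receptor reads. Barcodes counted as B cells if the B cell receptor table of the mouse called them cells and the T cell receptor table did not. Its primary heavy and light chains were the productive, high-confidence contigs with most unique molecular identifiers (UMIs, which count captured RNA molecules), with at least 2 UMIs each. Cells formed a clonotype if both primary chains matched in V gene, in J gene and in the nucleotides of the CDR3 (the junction that contacts antigen), and clonotypes of 2 or more cells were kept. Cells whose primary heavy chain held 1 recurrent CDR3, matched by its amino acids, were left out first. That heavy CDR3 was primary in 1706 of 3322 paired 564Igi cells and in 0 of 4773 WT cells. It is called the candidate chain, since no label states which sequences were knocked in. Members with under 1% of the heavy UMIs of their clonotype's top member were marked as low members. Clonotype size, the match of both chains and the low-member mark were therefore fixed by the selection and are described without a test.

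When a B cell divides, its daughters inherit the same rearranged heavy and light chain genes, so an identical pair in several cells is the usual mark of a clone. Class switching replaces the IgM and IgD constant regions with IgG, IgA or IgE. Plasma cells, which secrete antibody, hold far more immunoglobulin RNA than resting B cells. B-1 cells are an innate-like lineage that often carries a few germline-like receptors, among them IGHV11-2 with IGKV14-126.

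The 4 receptor tables held 927382 and 747499 UMIs for the WT and 564Igi B cell libraries and 86409 and 114433 for the T cell libraries. No doublet caller was run, and barcodes called in both tables of a mouse, 345 in WT and 373 in 564Igi, were left out. The members carried immunoglobulin pairs by selection, and T cell receptor contigs were read in 0 WT and 5 564Igi members, at no more than 2 UMIs. There were 31 B cell barcodes found in both mice, 2 of them members here, but no clonotype and no heavy chain was shared between the mice. Whether each member barcode was a separate cell was not tested, and the values that bear on this (UMIs, barcode sequences, and the same chains in barcodes that were not B cells) are given beside the clonotypes.

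Cells in clonotypes of 2 or more formed 1.09% (0.815 to 1.43) of the 4773 paired WT cells and 3.71% (2.85 to 4.75) of the 1616 paired 564Igi cells without the candidate. The 564Igi share was 2.62 percentage points higher (1.69 to 3.70). These intervals treat cells as independent. Members come by selection in clonotypes of 2 or more, so the intervals are too narrow even for counting error. A larger sample holds more repeats, so the numbers of cells matter. Drawing 1616 of the WT cells would leave an expected 9.02 cells in 3.98 clonotypes, or 0.558%. Nearly all clonotypes were small. In WT, 14 held 2 cells, 3 held 3, 2 held 4 and 1 held 7. In 564Igi, 20 held 2 cells, 4 held 3 and 2 held 4.

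**Figure D1:**
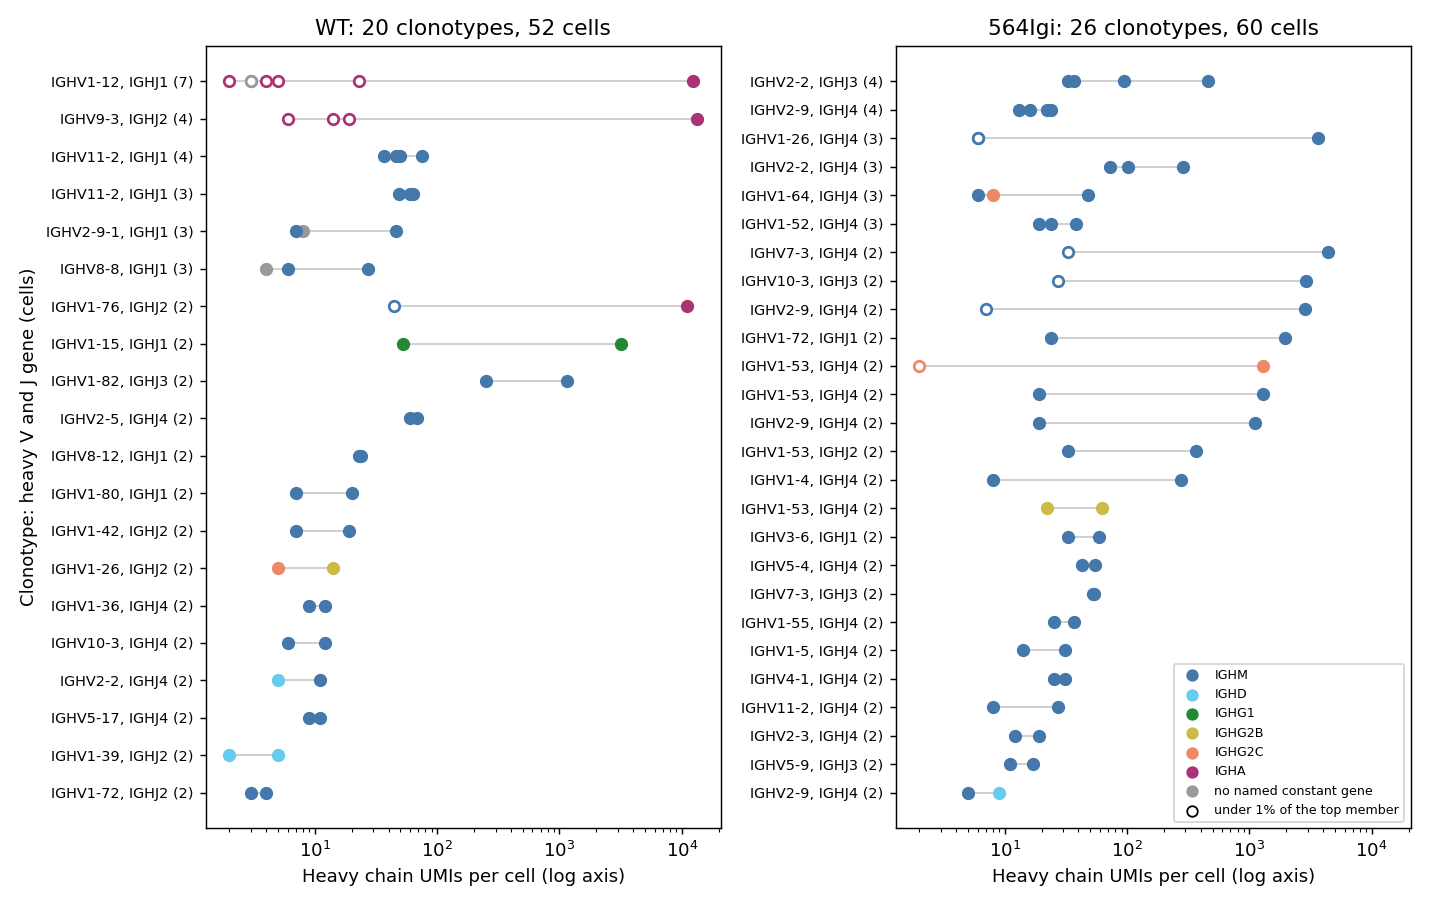
Heavy chain UMIs of every member (log axis), 1 row per clonotype, in WT (left) and 564Igi (right), coloured by constant gene, with open circles for members under 1% of the top member. The WT clonotypes with IgA run from 2 to 13370 UMIs, while the IGHV11-2 clonotypes run from 37 to 75.

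The largest WT clonotype, of 7 cells, and 1 of the 2 WT clonotypes of 4 cells were of IgA, the class secreted at mucosal surfaces. Each had 1 cell with nearly all of the RNA. The clonotype of 7 cells joined IGHV1-12 to IGHJ1 and used IGKV8-24. Its heavy UMIs were 12301, 23, 5, 4, 3, 3 and 2, and its light UMIs, in the same order of cells, 11099, 21, 27, 8, 11, 9 and 10. So 1 cell stood far above all the others on both chains, and the other 6 were low members. A constant gene was named in 5 of the 7, and it was IGHA in each. The clonotype of 4 cells joined IGHV9-3 to IGHJ2 and used IGKV12-46. Its heavy UMIs were 13370, 19, 14 and 6, with IGHA in all 4 cells, and its light UMIs were 17560, 16, 13 and 12. Again 3 of the members were low members. Their heavy CDR3 sequences, 5′ to 3′ as deposited, show 2 unrelated junctions:
IGHV1-12 IgA clonotype: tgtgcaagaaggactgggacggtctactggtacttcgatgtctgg
IGHV9-3 IgA clonotype: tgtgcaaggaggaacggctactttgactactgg

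Another WT clonotype paired IgA with IgM. It joined IGHV1-76 to IGHJ2 with the lambda gene IGLV1, and held an IGHA cell of 11007 heavy UMIs and an IGHM cell of 44. The IGHM cell had 0.400% of the top cell's heavy UMIs and 0.583% of its light UMIs, and so was a low member. These 3 IgA cells with high UMIs were the only paired WT cells of 1000 or more heavy UMIs with IGHA, since 0 of the 16 such cells outside the clonotypes had it.

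The other switched WT clonotypes were of IgG. An IGHV1-15 clonotype with IGKV15-103 held 2 IGHG1 cells, of 3177 and 53 heavy UMIs. The second cell was at 1.67% of the first, the WT value nearest above the 1% mark. The nearest below it was the IGHM cell of the IGHV1-76 clonotype, at 0.400%. An IGHV1-26 clonotype with IGKV2-109 held an IGHG2B cell of 14 heavy UMIs and an IGHG2C cell of 5, with 77 and 82 light UMIs. Here the light chains were level, and the constant genes differed. In total 5 of the 20 WT clonotypes had a switched member, 2 of them with IgA alone, 1 with IgA and IgM and 2 with IgG.

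The IGHV11-2 with IGKV14-126 pair, a B-1 type receptor, formed the WT clonotypes of 4 and 3 IgM cells. The first had 75, 50, 46 and 37 heavy UMIs and 219, 175, 119 and 60 light UMIs. The second had 63, 60 and 49 heavy UMIs and 112, 103 and 163 light UMIs. No member of either clonotype stood far from the rest in UMIs, no pair of their barcodes shared its first or last 9 bases, and neither heavy CDR3 was read in any other barcode. The heavy CDR3s differ at 1 base, A13G counted from the first CDR3 base, which is the residue change S5G counted from the conserved cysteine. The light CDR3s differ by G24A and A26T, or Y9F, and join to IGKJ2 and IGKJ4. Capitals mark the bases that differ:
IGHV11-2 heavy, clonotype of 4: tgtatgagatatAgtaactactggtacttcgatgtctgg
IGHV11-2 heavy, clonotype of 3: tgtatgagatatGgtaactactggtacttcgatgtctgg
IGKV14-126 light, clonotype of 4: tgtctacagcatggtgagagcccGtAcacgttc
IGKV14-126 light, clonotype of 3: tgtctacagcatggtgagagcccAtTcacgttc

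In RefSeq's annotation of GRCm38.p6 (mm10), Ighv11-2 lies on chromosome 12 from 114048241 to 114048704. Igkv14-126 lies on chromosome 6 from 67896177 to 67896642, where that table marks it as a pseudogene segment. This pair made up 2 of the 20 WT clonotypes of 2 or more cells and 6 of the 4721 WT cells whose receptor was read once. The shares were 10% (1.23 to 31.7) and 0.127% (0.0467 to 0.276), a difference of 9.87 points (1.11 to 31.6). The other B-1 type pair looked for, IGHV12-3 with IGKV4-91, was in 0 of the 20, where 3 clonotypes would make 15%, and in 1 single cell. In 564Igi neither pair occurred, and the 1 expanded IGHV11-2 chain there used the IGKV4-59 light chain. Every expanded 564Igi clonotype used that light V gene, so neither pair could be among them.

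The remaining WT clonotypes were of IgM or IgD. An IGHV2-9-1 clonotype of 3 cells had 46, 8 and 7 heavy UMIs, and an IGHV8-8 clonotype of 3 had 27, 6 and 4. In each, 2 cells had IGHM and 1 had no named constant gene. An IGHV1-82 clonotype stood apart with IGHM cells of 1142 and 252 heavy UMIs and 5255 and 1026 light UMIs, so both its members were rich in RNA. The other 10 clonotypes were pairs with top members of 4 to 68 heavy UMIs. Of these, 1 paired IGHM with IGHD (IGHV2-2) and 1 held 2 IGHD cells (IGHV1-39).

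In 564Igi the light chain was almost fixed. All 26 clonotypes used IGKV4-59 with IGKJ5, and 25 carried the same 33-base light CDR3, the most frequent of that mouse. That CDR3 was in 1285 of the 1556 single cells, or 82.6% (80.6 to 84.4), and the expanded clonotypes were at 96.2% (80.4 to 99.9). The difference of 13.6 points has an interval of -2.33 to 17.8, which includes 0. In WT, by contrast, 16 light V genes served 20 clonotypes. Because the light chain is shared, a match on both chains in 564Igi rests mostly on the heavy chain.

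The heavy chains of the 564Igi clonotypes fell into 3 kinds, set apart by how they relate to the candidate CDR3. In 12 clonotypes (28 cells) the last 30 bases of the candidate CDR3, with up to 2 mismatches, closed a longer CDR3 of 48 to 78 bases that began with another V gene or another junction. In 3 clonotypes (7 cells) the CDR3 was a near copy of the candidate, of equal length with 1 or 2 changed bases. The candidate was left out by its amino acids, so every near copy changes a residue by selection. In 11 clonotypes (25 cells) the end was not present. The sequences below show the candidate first and then 3 longer chains, with the shared last 30 bases in capitals:
candidate heavy: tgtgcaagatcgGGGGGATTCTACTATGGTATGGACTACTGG
IGHV2-9, clonotype of 4: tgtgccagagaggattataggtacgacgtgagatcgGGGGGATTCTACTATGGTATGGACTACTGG
IGHV2-2, clonotype of 3: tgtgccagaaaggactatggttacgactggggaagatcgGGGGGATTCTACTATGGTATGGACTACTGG
IGHV1-53, clonotype of 2: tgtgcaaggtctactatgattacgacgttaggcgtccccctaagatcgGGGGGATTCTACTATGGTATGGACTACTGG

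The match in the 12 longer chains ran past the 30 bases used to find it. Counted from the 3′ end, 35 to 39 bases were identical to the candidate without a break, whereas no clonotype outside the first 2 kinds shared more than 13. The 12 chains used 9 IGHV genes and IGHJ4 in every case, and 27 of the 28 cells were IGHM and 1 was IGHD. Among single cells of this mouse, 689 of 1556 carried the end, near copies included, or 44.3% (41.8 to 46.8). The expanded clonotypes were at 15 of 26, or 57.7% (36.9 to 76.6), a difference of 13.4 points whose interval of -7.51 to 32.5 includes 0. No WT chain carried it.

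Among the longer chains, the IGHV2-9 clonotype of 4 IGHM cells had heavy UMIs of 24, 22, 16 and 13 and light UMIs of 41, 32, 33 and 23, so its lowest cell had over 50% of the top cell on both chains. The IGHV2-2 clonotype of 3 had 285, 101 and 72 heavy UMIs, and an IGHV1-52 clonotype of 3 had 38, 24 and 19. Some longer chains were far less even. Of the other IGHV2-9 clonotypes, 1 had cells of 2855 and 7 heavy UMIs and 1 had 1109 and 19. The IGHV1-53 clonotype printed above had 1289 and 19, and an IGHV1-4 clonotype had 275 and 8. The last IGHV2-9 clonotype paired an IGHD cell of 9 heavy UMIs with an IGHM cell of 5. The 4 other longer chains, of IGHV5-4, IGHV1-5, IGHV11-2 and IGHV2-3, were pairs with top members of 19 to 55 heavy UMIs. IGHV2-9 and IGHV1-53 were the only V genes used by 3 or more expanded clonotypes in a mouse, with 4 each. IGHV2-9 was in 15.4% (4.36 to 34.9) of the expanded clonotypes against 2.25% (1.57 to 3.11) of single 564Igi cells. For IGHV1-53 the shares were 15.4% and 3.73% (2.84 to 4.79). Of each gene, 1 clonotype counts as expanded only through a low member. All 4 IGHV2-9 clonotypes carried the candidate end.

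The near copies held every switched cell of the 564Igi clonotypes, 5 of the 60. Capitals mark bases that differ from the candidate:
IGHV1-64 near copy: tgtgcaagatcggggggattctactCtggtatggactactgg
IGHV1-53 near copy, IGHG2C: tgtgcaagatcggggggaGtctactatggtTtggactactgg
IGHV1-53 near copy, IGHG2B: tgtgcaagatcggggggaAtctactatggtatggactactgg

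The IGHV1-64 near copy differs by A26C (residue change Y9S) and held an IGHM cell of 48 heavy UMIs, an IGHG2C cell of 8 and an IGHM cell of 6. Its light UMIs were 23, 33 and 13, so the IGHG2C cell was the highest on the light chain. The IGHG2B near copy differs by T19A (F7I) and held cells of 62 and 22 heavy UMIs and 161 and 71 light UMIs, with IGHG2B in both. The IGHG2C near copy differs by T19G and A31T (F7V and M11L) and held cells of 1290 and 2 heavy UMIs, the second a low member at 0.155%.

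The IGHG2C near copy was also the 1 expanded clonotype with a changed light chain. Its light CDR3 carried A5T, C21A and C22T (Q2L, N7K and P8S). Another IGHG2C cell outside the clonotype had the same heavy CDR3, with 4355 heavy and 9087 light UMIs, and a light CDR3 with C21A and C22T alone. So 3 cells shared 1 changed heavy CDR3, and their light CDR3s shared 2 changes and differed by 1. In the light sequences, capitals again mark changes:
candidate light: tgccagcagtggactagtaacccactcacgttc
cell outside the clonotype: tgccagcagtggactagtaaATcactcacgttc
clonotype of 2: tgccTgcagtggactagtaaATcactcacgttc

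In GRCm38.p6, Ighv1-53 lies on chromosome 12 from 115158445 to 115158835 and Igkv4-59 on chromosome 6 from 69438218 to 69438741. Near copies, with 1 to 5 mismatches at equal length, made up 3 of 26 expanded clonotypes, or 11.5% (2.45 to 30.2), and 19 of 1556 single cells, or 1.22% (0.737 to 1.90). The difference was 10.3 points (1.20 to 28.9). Of these 3, the IGHG2C near copy counts as expanded only through its low member.

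The 11 clonotypes without the end used IGHJ4 in 4 cases. The clonotype of IGHV2-2 with IGHJ3, of 4 IGHM cells, had heavy UMIs of 460, 95, 37 and 33 and light UMIs of 437, 82, 25 and 23, so heavy and light chains fell together from cell to cell. An IGHV1-26 clonotype of 3 IGHM cells had 3632, 6 and 6 heavy UMIs, with 2 low members. Pairs with a rich top cell were of IGHV7-3 (4378 and 33), IGHV10-3 (2882 and 27), IGHV1-72 (1945 and 24) and IGHV1-53 with IGHJ2 (365 and 33). The IGHV10-3 cell at 0.937% and the IGHV1-72 cell at 1.23% lay just under and just over the 1% mark. In the 5 other pairs, of IGHV3-6, IGHV7-3, IGHV1-55, IGHV4-1 and IGHV5-9, the lower member had at least 10% of the top member.

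Low members occurred in both mice. There were 10 in 3 WT clonotypes, all with a switched member, and 6 in 5 564Igi clonotypes. All 16 also had under 1% of the highest light UMIs of their clonotype. The heavy UMIs of low members ran from 2 to 44 with a median of 5.5 in WT, and from 2 to 33 with a median of 6.5 in 564Igi. Without them, 17 WT clonotypes of 39 cells and 21 564Igi clonotypes of 49 cells were left. Of the clonotypes with a top cell of 1000 or more heavy UMIs, 4 of 5 in WT and 8 of 8 in 564Igi had every other member under 5% of it. The exception was the IGHV1-82 IgM clonotype.

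**Figure D2:**
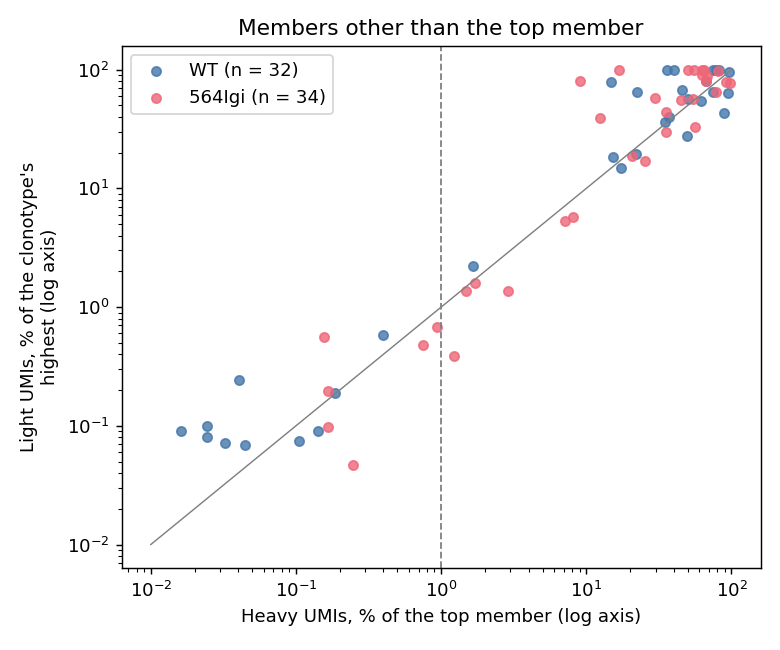
Heavy UMIs (x) against light UMIs (y) of each member other than the top one, as a percentage of the highest member of its clonotype (both log axes), with the 1% mark dashed and equality as a grey line. Members under 1% on the heavy chain were under 1% on the light chain too, and 27 of 32 WT and 28 of 34 564Igi points had percentages within 3-fold of each other. Above the mark, an IGHV1-53 with IGHJ2 member of 564Igi had 9.04% on the heavy and 81.0% on the light chain.

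Some members also had like barcodes. A droplet barcode here is 16 bases long and unrelated to the receptor. Among pairs of members of 1 clonotype, 6 of 56 in WT and 5 of 44 in 564Igi shared their first 9 bases, or 10.7% and 11.4%. Over all pairs of paired cells the share was 0.0530% in WT and 0.0521% in 564Igi. The last 9 bases were shared by 1 of 56 and 0 of 44 member pairs, against 0.0656% and 0.0635% of all pairs. All 6 WT pairs with a shared start came from the 4 cells of the IGHV9-3 IgA clonotype, whose barcodes are printed with the shared bases in capitals:
13370 heavy UMIs: ATCCGAAGTagctaaa
19 heavy UMIs: ATCCGAAGTctgcggt
14 heavy UMIs: ATCCGAAGTaggacac
6 heavy UMIs: ATCCGAAGTtacgtca

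In 564Igi the 3 cells of the IGHV1-26 clonotype shared the start of the barcode, as did both cells of the IGHV10-3 clonotype and 2 of the 4 cells of the largest IGHV2-9 clonotype. Of the low members, 4 in WT and 3 in 564Igi shared a barcode part with the top member. The barcodes of the IGHV10-3 pair differ at 4 of 16 positions. The part of barcode likeness in the clonotype counts was not tested. Leaving out members that share a part with a larger member gave 47 cells in 19 WT clonotypes and 54 cells in 24 564Igi clonotypes.

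The heavy CDR3s of some clonotypes were also read in barcodes that were not B cells. The IGHV2-2 with IGHJ3 clonotype of 564Igi was the most widespread, in 168 of 12010 uncalled barcodes, or 1.40% (1.20 to 1.63), and in 12 of 4573 T cell barcodes, or 0.262% (0.136 to 0.458). It was also in 14 further B cell barcodes. Its level outside the members was low, with a median of 1 UMI and no more than 4 in an uncalled barcode and no more than 5 in a T cell barcode. In WT the IGHV1-12 IgA clonotype was the most widespread, in 30 of 10780 uncalled barcodes, 1 T cell barcode and 8 further B cell barcodes. Of these 8, 1 was a cell of the smaller IGHV11-2 clonotype, with 2 UMIs in a contig without the confidence flag.

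**Figure D3:**
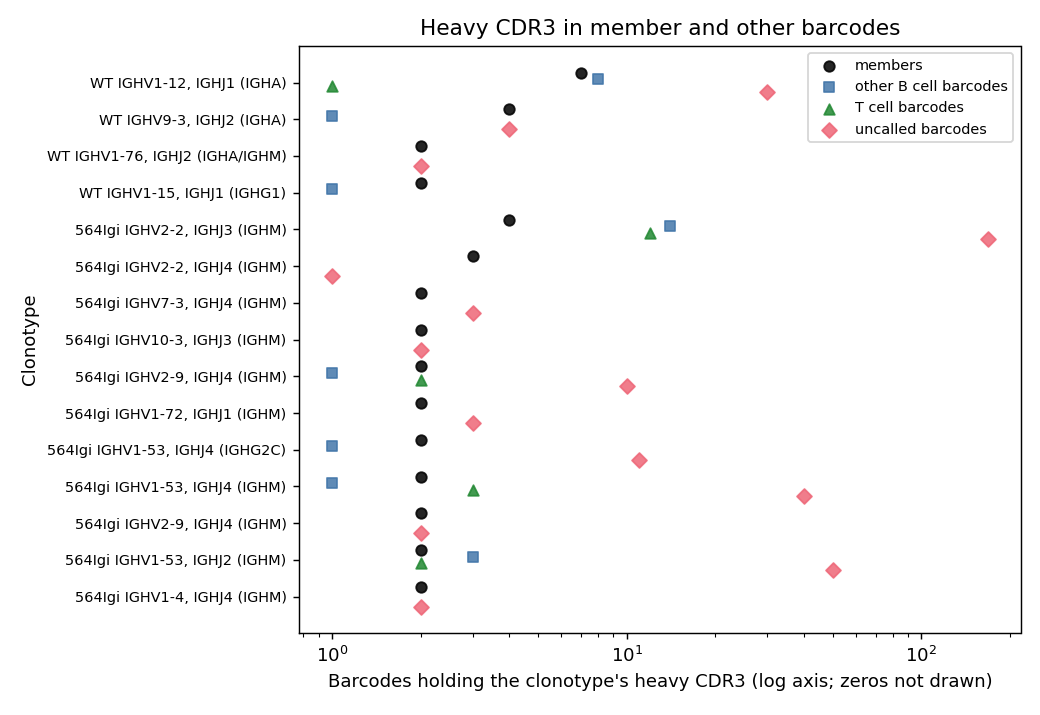
Number of barcodes (log axis, zeros not drawn) that held the heavy CDR3 of each clonotype, for members, other B cells, T cells and barcodes not called as cells. Only clonotypes with such a barcode are drawn, barcodes called in both tables are left out, and the IGHV2-2 with IGHJ3 clonotype reaches 168 uncalled barcodes.

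At the level of clonotypes, the heavy CDR3 was in an uncalled barcode for 3 of 20 in WT, or 15% (3.21 to 37.9), against 37 of 4721 single cells, or 0.784% (0.552 to 1.08). In 564Igi it was 11 of 26, or 42.3% (23.4 to 63.1), against 50 of 1556, or 3.21% (2.39 to 4.21). The differences were 14.2 points (2.42 to 37.1) and 39.1 points (20.1 to 59.9). The 3 WT clonotypes were those of IGHV1-12, IGHV9-3 and IGHV1-76, which count as expanded only through low members. The 564Igi clonotypes with low members, apart from that of IGHV1-26, were also among the 11. The heavy CDR3 was in T cell barcodes for 1 WT clonotype (IGHV1-12) and 4 564Igi clonotypes. Cells rich in RNA showed the same outside the clonotypes. Of single cells with 1000 or more heavy UMIs, 7 of 16 in WT and 20 of 21 in 564Igi had their heavy CDR3 in a T cell or uncalled barcode, as did 3 of 5 and 7 of 8 such members. The part of such barcodes in the clonotype counts was not tested. Leaving out every clonotype with such a barcode gave 39 cells in 17 WT clonotypes and 35 cells in 15 564Igi clonotypes, and the 564Igi share of 2.17% was still 1.35 points above the WT share of 0.817%.

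**Figure D4:**
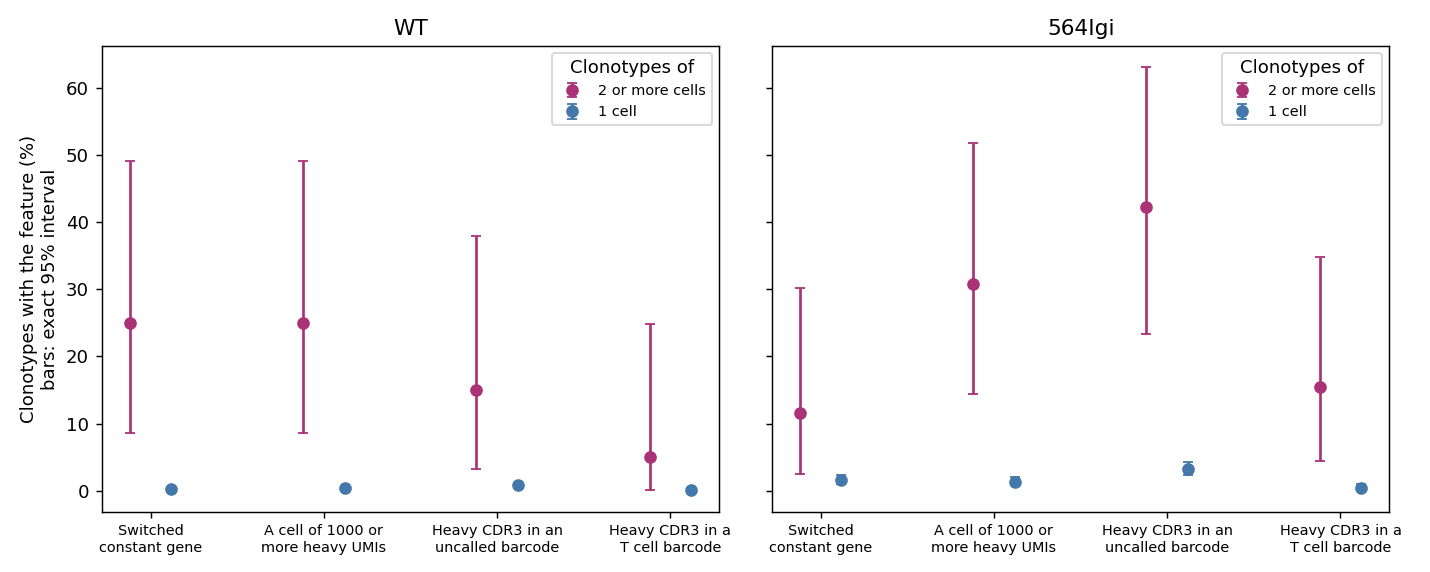
Share of clonotypes (%) with each of 4 features among clonotypes of 2 or more cells and of 1 cell in WT and 564Igi, with exact 95% intervals. Expanded clonotypes sit higher for each, and the intervals are wide because they rest on 20 and 26 clonotypes. Clonotypes that count as expanded only through low members are included.

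Clonotypes of 2 or more cells held a switched member more often than single cells did. In WT the count was 5 of 20, or 25% (8.66 to 49.1), against 12 of 4432 single cells with a named constant gene, or 0.271% (0.140 to 0.472), a difference of 24.7 points (8.39 to 48.8). In 564Igi it was 3 of 26, or 11.5% (2.45 to 30.2), against 24 of 1501, or 1.60% (1.03 to 2.37), a difference of 9.94 points (0.814 to 28.6). A clonotype has several members in which a switched gene can be seen, and a single cell has 1. Low members bear on the WT value. Without them, 2 of 17 WT clonotypes and 2 of 21 564Igi clonotypes had a switched member, 11.8% and 9.52%.

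By cell, IGHA was in 10 of 48 WT members with a named constant gene, or 20.8%, and in 4 of 4432 single cells. Without low members it was in 3 of 40, or 7.5% (1.57 to 20.4). Those 3 are the top cells of clonotypes that count as expanded only through low members. No WT clonotype that kept 2 or more members without them had an IGHA cell. In the WT clonotypes left, 4 of 37 cells with a named constant gene were switched, all of them IgG. IGHM was in 31 and IGHD in 3 of the 48, and IGHG1, IGHG2B and IGHG2C in 2, 1 and 1. IGHG3 and IGHE were in 0, where 3 cells would make 6.25%. In 564Igi, IGHM was in 54 of 60 members, IGHD in 1, IGHG2C in 3 and IGHG2B in 2. IGHG1, IGHG3, IGHA and IGHE were in 0, where 3 cells would make 5%. IGHD, which mature naive B cells express together with IgM, had a lower share among members in both mice. It was in 6.25% of members against 21.8% of single cells in WT, a difference of -15.5 points (-20.6 to -4.49), and 1.67% against 12.2% in 564Igi, a difference of -10.5 points (-12.9 to -3.08). Members of 1 clonotype share their origin, so these cells are not independent. Members agreed in constant gene in 17 of 20 WT and 24 of 26 564Igi clonotypes.

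Cells rich in immunoglobulin RNA were also more frequent among the expanded clonotypes. A cell of 1000 or more heavy UMIs was in 5 of 20 WT and 8 of 26 564Igi clonotypes, against 16 of 4721 and 21 of 1556 single cells. The differences were 24.7 points (8.32 to 48.8) and 29.4 points (13.0 to 50.4). A clonotype has several members in which such a cell can be seen, while a single cell counts alone. Low members bear on both values. The 3 WT and 5 564Igi clonotypes with low members all had such a cell, and they count as expanded only through low members. In 4 of the 5 WT and 8 of the 8 564Igi clonotypes with such a cell, every other member was under 5% of it. The primary chains of those 5 and 8 cells made up 10.1% and 7.40% of all UMIs of the B cell tables. Over all members the median of heavy UMIs was 14 in WT, equal to that of single cells, and 31 against 16 in 564Igi. The median of light UMIs was 35.5 against 47 in WT and 33 against 19 in 564Igi.

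Gene usage was broad in WT. The 20 clonotypes used 19 IGHV genes, and the IGHV1 family, the largest of the mouse, was in 10, or 50% (27.2 to 72.8), against 58.7% of single cells. IGHJ1 was in 8 of 20, or 40% (19.1 to 63.9), against 16.7% (15.6 to 17.8), a difference of 23.3 points (2.40 to 47.3). IGHJ2, IGHJ3 and IGHJ4 were in 6, 1 and 5. IGKJ1 was in 0 of 20, where 3 clonotypes would make 15%, against 28.9% (27.6 to 30.2) of single cells, a difference of -28.9 points (-30.2 to -12.0). IGKJ2, IGKJ4 and IGKJ5 were in 7, 6 and 5, and lambda chains in 2.

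In 564Igi, 18 IGHV genes served 26 clonotypes. The IGHV2 family was in 7, or 26.9% (11.6 to 47.8), against 10.5% of single cells, a difference of 16.4 points (1.01 to 37.4). The IGHV1 family was in 11, or 42.3%, against 47.2%, a difference whose interval of -24.0 to 16.1 points includes 0. The IGHV5 family was in 2 and other families in 6. IGHJ4, the J gene of the candidate chain, was in 19 of 26, or 73.1% (52.2 to 88.4), against 59.3% (56.8 to 61.8). IGHJ1, IGHJ2 and IGHJ3 were in 2, 1 and 4. RefSeq's table held all 53 V and J genes of the clonotypes.

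CDR3 length was alike in expanded and single receptors. The WT median was 14 residues in both, with a range of 10 to 18 in the expanded clonotypes. In 564Igi the median was 16.5 against 17 residues. Those with the candidate end had 22 against 20, and those without it 14 in both. A net charge of 1 or more, counted as arginine and lysine minus aspartate and glutamate, occurred in 4 of 20 clonotypes in WT and 7 of 26 in 564Igi, 20% against 24.1% of WT single cells and 26.9% against 33.2% of 564Igi single cells. Both intervals of the difference include 0.

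Second chains, which were not used to build the clonotypes, were shared by members in 3 cases. In the IGHV11-2 clonotype of 3 cells, 2 cells also held an IGKV6-32 chain with the same CDR3, at 82 and 69 UMIs, where the primary light chains of the clonotype had 103 to 163. The third held an IGLV2 chain at 12 UMIs. In the IGHV11-2 clonotype of 4, the cell of 37 heavy UMIs alone held second chains. They were a heavy chain of IGHV3-6 at 23 UMIs and a light chain of IGKV4-68 at 12. Whether that barcode held more than 1 cell was not tested. In the IGHV1-64 near copy, 2 cells shared an IGKV14-111 chain at 7 and 6 UMIs, called productive in 1 and not in the other. In the WT IGHV5-17 clonotype, both cells held an IGKV4-59 chain at 10 and 5 UMIs in contigs without the confidence flag. A second productive chain was present in 6 of 52 WT members, or 11.5% (4.35 to 23.4), and 5 of 60 564Igi members, or 8.33% (2.76 to 18.4). The single cells were at 18.9% and 14.4%, and both intervals of the difference include 0. Of the 2 kinds taken apart, the second light chain in 564Igi was lower, in 1.67% of members against 10.0% of single cells, a difference of -8.36 points (-10.6 to -0.943). That share is 1 member, or 1.85% without low members, and the interval treats members of a clonotype as independent cells. The intervals for the second light chain in WT, -14.4 to 3.56 points, and for the second heavy chain in both mice include 0. The candidate heavy CDR3 was a second chain in 1 member, at 11 UMIs in a cell of the largest IGHV2-9 clonotype, and in 25 single cells of 564Igi.

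The authors' own clonotype labels, deposited with the contigs, put all members in 1 clonotype in 16 of 20 WT and 21 of 26 564Igi cases. No WT heavy chain of these clonotypes occurred with another light chain in a further paired cell, and in 564Igi the IGHG2C near copy alone did.

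**Figure D5:**
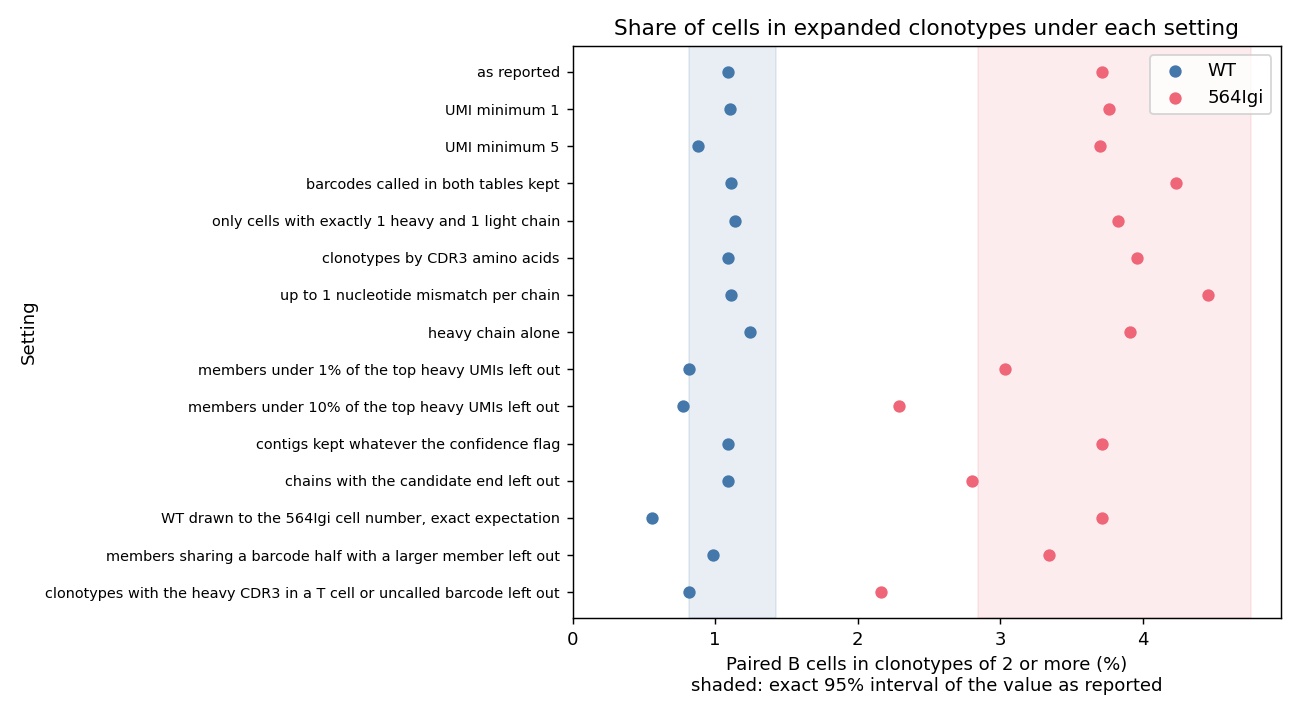
Share of paired B cells in clonotypes of 2 or more (x, %) in WT and 564Igi, as reported and under 14 other settings (rows), with the exact 95% interval of the reported value shaded. The 564Igi point lies to the right of the WT point in every row drawn.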

How the data were processed

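B cell and T cell receptor libraries from 1 WT and 1 564Igi spleen were used, 4 of the 6 libraries of the series. The other 2, of gene expression, were not used here. Libraries came from 10x 5′ and V(D)J kits, per the labels' protocols. Cell Ranger 3.0.2 and mm10 appear in the submitters' processing notes, with no step attached. The authors deposited read and UMI counts per contig as raw whole numbers, per the file headers, with contig lengths in bases, cell calls, gene names and CDR3s. The settings behind cell calls and the confidence flag are not given in the sources read.

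Cells, clonotypes and low members were built as the results state. Barcodes called in both tables were left out, and doublets within B cells remain. The end was the last 30 bases of the candidate CDR3 with up to 2 mismatches, and near copies had up to 5. Exact Clopper-Pearson intervals (95%) belong to shares and Newcombe intervals to differences. Both cover counting error only and treat the cells or clonotypes counted as independent. A count of 0 comes with a floor of 3 counts. No test between groups exists for single mice. UMIs were not thinned, so chains of shallow cells may be missed. Named in full were clonotypes of 3 or more cells, or with a switched member, a low member or a shared second chain, V genes of 3 or more clonotypes, and isotypes. Further pairs were named after their values were seen. Members and lists were chosen with earlier results of these data known. Scripts were checked on simulated data. Alternatives changed the UMI minimum (1 or 5), barcode and chain filters, clonotype definition, low-member mark (10%) and cell number. Gene positions come from RefSeq, GRCm38.p6. Software was SciPy 1.17.1, NumPy 2.4.6, pandas 2.3.3 and matplotlib 3.10.9 under Python 3.11.15.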

Additional observations from a re-analysis of the deposited data

Results flagged for a closer look

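The heavy CDR3s of 6 clonotypes were read in 10 or more barcodes that were not called as cells, which the clonotype counts do not use. In WT the IGHV1-12 IgA clonotype was read in 30 of them. In 564Igi the counts were 168 for IGHV2-2 with IGHJ3, 50 for IGHV1-53 with IGHJ2, and 40 for the IGHM clonotype of IGHV1-53 with IGHJ4. They were 11 for the IGHG2C near copy of IGHV1-53 and 10 for the IGHV2-9 clonotype with cells of 2855 and 7 heavy UMIs. The median was 1 UMI per uncalled barcode for each of the 6. The IGHV2-2 with IGHJ3 clonotype had the most such barcodes, though its top member, at 460 heavy UMIs, was not among the richest.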

How the results depend on the processing

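No paired analysis was possible because each group is 1 mouse and no result comes from a test. Over 15 settings, 155 of 179 recomputed values stayed within 1.5-fold (counts) or within the 95% interval (shares), 24 moved and 0 reversed. Some of the 155 could not change. These were the 564Igi values when only WT was drawn, and the WT values in the settings on the candidate chain or its end. The 564Igi share was above the WT share in 15 of 15. With WT drawn to 1616 cells by exact expectation, WT had 9.02 cells in 3.98 clonotypes, or 0.558%. Without members under 10% of the top heavy UMIs, 564Igi had 37 cells in 16 clonotypes, or 2.29%, WT had 0.775%, and the difference was 1.51 points; 13 564Igi members lay under that mark. Without chains carrying the candidate end, 564Igi had 25 cells in 11 clonotypes, or 2.80%, and switched shares of 0% of cells and 0% of clonotypes. Keeping the candidate heavy chain gave 1739 564Igi cells, 52.3% and a difference of 51.3 points. The switched share of WT members was 29.2%, and 10.8% both without low members and without clonotypes read in T cell or uncalled barcodes. The latter setting, chosen after seeing the data like that on barcode parts, gave 35 564Igi cells in 15 clonotypes, 2.17% and a difference of 1.35 points. A UMI minimum of 5 left 6 WT low members. Causes were not tested beyond what each setting removes. Depth limits what can be seen in shallow members: 2 WT members and 1 564Igi member had a primary chain of only 2 UMIs.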
